A study of Mus musculus with 4 samples.

Results

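Orphan and adhesion G protein-coupled receptors were examined in a pair of mouse ovarian cancer cell lines. The genes were those whose RefSeq symbol begins with Gpr or Gprc and a digit, or with Adgr. Their probes were found through the RefSeq accession that the array gives for each probe. Of 111 symbols of this form in the reference, 107 had a probe, out of 22911 genes with a symbol on the array. These 107 genes were measured by 144 of 56605 probes. Adhesion receptors that carry other names, such as the Celsr genes, are not included.

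ID8G cells are ID8 cells, a mouse ovarian surface epithelial line that forms tumors in C57BL/6 mice, made to express GFP. GO2 cells were obtained from ID8G cells by 2 rounds of intraperitoneal injection into syngeneic mice, each followed by sorting of GFP-positive, CD45-negative cells from the omental tumor, a gate that removes leukocytes. Both lines were grown in DMEM with serum, insulin, transferrin and selenite, and total RNA of each was hybridized to 2 Agilent arrays with Cy3, 1 color per array. The labels name the GO2 arrays as omental tumor and also as the cell line, and GO2 is 1 selected line, so that selection in mice and drift of a single line cannot be told apart. The labels do not say whether the 2 arrays of a line came from separate cultures, and adjusted p-values then measure only the spread between these arrays.

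G protein-coupled receptors span the membrane with a bundle of helices and pass an outside signal to heterotrimeric G proteins, made of an alpha subunit and a beta-gamma pair. Receptor kinases and arrestins switch the active receptor off, and RGS proteins switch the alpha subunit off. Adhesion receptors (Adgr) carry a long extracellular region that binds matrix or neighboring cells, and most are cleaved in a domain next to the membrane, which leaves a tethered peptide that can activate the receptor. Class C receptors of the Gprc5 family were found as genes induced by retinoic acid. Many receptors with a Gpr number were named before a ligand was known, and some still have none. A few proteins with a Gpr name, among them Gpr107, Gpr108, Gpr137b and Gpr89, lie in membranes inside the cell and are not known to act as classical receptors.

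A level below is a probe's intensity on the log2 scale, set against the 75th percentile of its array, so that 0 is that percentile and a difference of 1 is a 2-fold change. A probe was tested with limma where the scanner software marked it as well above background on each ID8G array or on each GO2 array. It is said to rise or fall, or to be called, where the p adjusted by Benjamini and Hochberg over all 28344 probes tested was under 0.05 and the difference reached 2-fold. The number of arrays limits the precision, and with 2 arrays against 2 an exact permutation test of 1 probe cannot give a two-sided p below 0.333.

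The arrays were similar in brightness, with 27502 to 28841 probes well above background and a 75th percentile of 627 to 675, and no spot was saturated. Replicates correlated at 0.997 across the probes tested, and the cell lines at 0.967 to 0.968. Of 7 ovarian surface and mesothelial markers on the array, 6 were tested, among them Wt1 and Msln, which were well above background in both lines, while Pax8 was so on 1 array. Of these Upk3b alone was called, as higher. Of 7 epithelial markers, Epcam, Krt7 and Cldn4 were not well above background on any array, and Krt19 fell by 1.65 on the log2 scale. The summed linear signal of the epithelial markers, relative to the 75th percentile, was 543 to 561 on the ID8G arrays and 284 to 286 on the GO2 arrays. For 9 fibroblast markers the sum was 71.2 to 73.7 in ID8G and 215 to 221 in GO2 cells, and 6 of them were called higher. Another 2 of the 9, Lum among them, were well above background on no array. Dcn, a bright fibroblast marker, went the other way, from 6.07 and 6.01 in ID8G to 5.41 and 5.42 in GO2 cells. Its difference was -0.63 (adjusted p = 0.00308), under 2-fold and not called. For 9 macrophage markers it was 21.5 to 24.3 and 21.6 to 21.8, with Ptprc, Lyz2 and Mrc1 at background and Csf1r, Itgam and Cd68 above it, and for 7 endothelial markers 0.191 to 0.236 and 0.213 to 0.24, with 6 of the 7 at background and Pecam1 well above it on all 4 arrays (difference 0.08, adjusted p = 0.521). The part of other cell types in the results below was not tested. RNA from fewer cells of a type and less RNA per cell cannot be told apart in these samples.

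Promoter sequences are shown for 5 of the called receptors, chosen after their values were seen, to set falling genes beside rising ones. Gprc5b, Gpr37 and Gpr142 fell in GO2 cells, and Gpr85 and Gpr153 rose. Of 16 genes with a called probe, 11 had a promoter in the RefSeq table for GRCm38.p6, each a window of 300 bases, from 250 before the transcript start to 50 after it. Capitals mark a GC box (GGGCGG) or an E-box of the form CACCTG, on either strand. The TATA box TATAAA was also searched and found in none of the 5. The sequences are written 5′ to 3′ in the direction of transcription, and for Gpr142 and Gpr153, which have 2 starts in the table, the one listed at the lower coordinate is shown.
Gprc5b, chr7:118995162-118995461, minus strand: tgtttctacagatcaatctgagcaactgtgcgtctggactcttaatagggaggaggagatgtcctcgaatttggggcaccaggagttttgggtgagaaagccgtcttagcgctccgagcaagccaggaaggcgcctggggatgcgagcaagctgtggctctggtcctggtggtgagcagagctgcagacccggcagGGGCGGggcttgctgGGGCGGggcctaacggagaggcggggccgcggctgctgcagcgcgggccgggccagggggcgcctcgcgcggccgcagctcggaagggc
Gpr37, chr6:25689931-25690230, minus strand: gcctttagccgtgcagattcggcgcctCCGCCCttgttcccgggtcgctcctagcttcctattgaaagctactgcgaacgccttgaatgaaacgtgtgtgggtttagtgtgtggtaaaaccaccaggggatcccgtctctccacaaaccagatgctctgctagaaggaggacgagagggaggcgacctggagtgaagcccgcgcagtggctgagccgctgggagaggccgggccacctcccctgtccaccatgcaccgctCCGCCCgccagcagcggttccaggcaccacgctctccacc
Gpr142, chr11:114798674-114798973, plus strand: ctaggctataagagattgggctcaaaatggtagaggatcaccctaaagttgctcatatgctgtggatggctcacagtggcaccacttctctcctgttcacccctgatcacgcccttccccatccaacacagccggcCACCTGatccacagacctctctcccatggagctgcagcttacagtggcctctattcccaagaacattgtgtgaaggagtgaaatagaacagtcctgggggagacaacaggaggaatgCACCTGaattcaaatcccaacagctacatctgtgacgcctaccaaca
Gpr85, chr6:13839893-13840192, minus strand: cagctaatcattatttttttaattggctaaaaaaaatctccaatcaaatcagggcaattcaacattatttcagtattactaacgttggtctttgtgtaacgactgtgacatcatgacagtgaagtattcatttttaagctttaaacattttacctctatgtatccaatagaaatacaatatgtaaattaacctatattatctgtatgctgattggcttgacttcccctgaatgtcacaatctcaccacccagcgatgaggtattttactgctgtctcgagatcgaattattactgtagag
Gpr153, chr4:152273862-152274161, plus strand: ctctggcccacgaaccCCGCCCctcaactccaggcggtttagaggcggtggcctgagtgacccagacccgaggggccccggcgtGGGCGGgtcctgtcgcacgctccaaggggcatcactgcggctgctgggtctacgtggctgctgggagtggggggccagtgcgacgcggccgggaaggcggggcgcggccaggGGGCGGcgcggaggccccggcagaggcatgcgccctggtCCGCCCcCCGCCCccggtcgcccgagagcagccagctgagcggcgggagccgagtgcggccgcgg

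The windows of Gprc5b and Gpr37 each held 2 GC boxes and that of Gpr153 held 5, while those of Gpr142 and Gpr85 held 0. Among all 32851 promoters of the table, 35.7% held a GC box. The E-box appeared 2 times in the Gpr142 window and in 20.2% of all promoters, and TATAAA appeared in 13.6% of all promoters. Gpr153 had 35 CpG dinucleotides and Gprc5b 23, against a median of 7 over all promoters, and Gpr142 had 3 and Gpr85 5. These counts depend on the start. The other start of Gpr142 held 0 E-boxes and 2 CpG, and that of Gpr153 held 2 GC boxes and 42 CpG. Both falling and rising receptors thus include CpG-rich and CpG-poor starts. A match of letters is a description of the window and does not show that a factor binds there.

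Most of these receptors were not seen in either cell line. Of 107 genes, 43 had a tested probe and 64 did not, and for 57 of those 64 no probe was well above background on any array. By probes, 53 of 144 (36.8%) were tested, where 50.1% of all probes on the array were. The adhesion receptors Adgre1, which is the macrophage marker F4/80, and Adgrl4, which marks endothelium, were not well above background on any of the 4 arrays. The proton-sensing receptors gave 1 tested gene of 4, the lipid and metabolite receptors 2 of 13, and the receptors with constitutive Gs activity 2 of 3. The intracellular proteins with a Gpr name were seen most often, with 8 of 10 genes tested.

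**Figure D1:**
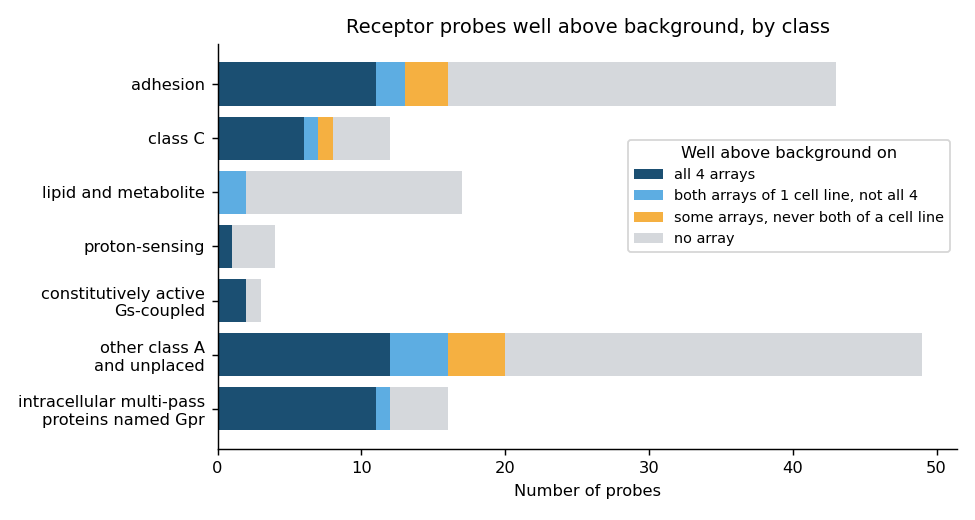
Number of receptor probes (x axis) by class (y axis), split by the arrays on which they were well above background. Of 43 adhesion receptor probes 27 were on no array, and in the lipid and metabolite class 0 of 17 were on all 4 arrays.

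Among the 53 tested probes, 8 rose and 11 fell in GO2 cells. These belong to 8 genes that rose (Gpr85, Gpr153, Adgrf4, Gpr17, Gpr183, Gpr176, Adgrg6 and Gprc5a) and 8 that fell (Gprc5c, Gpr37, Gpr142, Gprc5b, Gpr182, Adgrb2, Adgrg1 and Adgra2). Of all probes tested, 4.51% rose and 3.34% fell, 7.84% in either direction. By gene, 5.07% of gene names with a tested probe had one that rose and 3.74% one that fell. The adjusted p alone, with no fold required, was passed by 32 of the 53 receptor probes and by 35.9% of all probes. A share over tested probes is raised by those that passed the filter only in the line where they are high, which holds for 5 of the 8 that rose and 3 of the 11 that fell. The direction of such probes largely follows from the filter. In the 43 receptor probes with every array well above background, 3 rose (6.98%) and 8 fell (18.6%), where 2.55% and 2.32% of all such probes did. The median difference of these 43 probes was -0.0859 on the log2 scale and that of all such probes was -0.0279. Of the 53 tested probes, 45 had GO2 arrays both on the same side of the ID8G arrays, where 73.6% of all tested probes did. With the arrays scaled to the spike-in transcripts instead, the median difference of all tested probes moved from -0.0227 to -0.227, and 5 receptor probes rose and 11 fell. The share of calls that were higher went from 42.1% to 31.2% for the receptors, and from 57.4% to 43.7% for all probes.

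**Figure D2:**
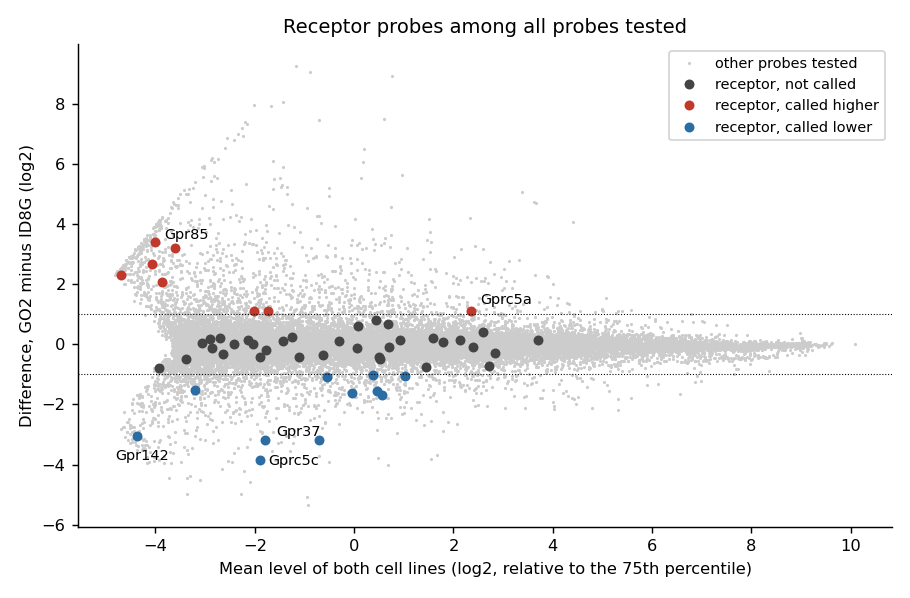
Difference GO2 minus ID8G (y axis, log2) against the mean level of both lines (x axis, log2 relative to the 75th percentile) for all 28344 probes tested, with the receptor probes drawn large. Dotted lines mark a 2-fold change. Gpr85 and 4 other probes that rose lie at the dim left edge, where ID8G cells were not well above background, while most probes that fell lie at higher levels.

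The class C receptors of the Gprc5 family moved in opposite directions. Gprc5c had the largest fitted fall among the receptors, although Gpr142, which was not measurable in GO2 cells, cannot be ranked against it. Its probe A_51_P309988 had levels of 0.06 and -0.03 in ID8G cells and of -3.90 and -3.75 in GO2 cells, where 1 array was well above background. The difference was -3.84 (standard error 0.08, adjusted p = 0.000204), a 14.3-fold lower signal. With normexp background correction it was -2.65, still called. The second Gprc5c probe, A_55_P2017694, was well above background on all 4 arrays, at 0.86 and 0.92 in ID8G and -2.50 and -2.09 in GO2 cells, and fell by 3.18 (standard error 0.15, adjusted p = 0.000768). The first probe passed the filter only through ID8G cells, so that its direction largely follows from the filter. The second probe, measured on all 4 arrays, gave groups that were far apart.

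Gprc5b, a receptor of the same family, also fell by both of its probes. A_51_P173709 had levels of 1.39 and 1.41 in ID8G and -0.32 and -0.23 in GO2 cells, a difference of -1.68 (standard error 0.06, adjusted p = 0.000414). A_55_P2137828 differed by -1.09 (standard error 0.09, adjusted p = 0.00256), and by -0.94 with normexp background correction, where it was not called. Gprc5a, which is known as a tumor suppressor in the mouse lung, rose instead, with levels of 1.78 and 1.84 in ID8G and 2.84 and 2.97 in GO2 cells. Its difference was 1.09 (standard error 0.07, adjusted p = 0.0015), and 0.89 with spike-in scaling, which is no longer 2-fold. Gprc5d, the fourth of the family and the gene next to Gprc5a in the genome, was tested by 2 probes that differed by 0.04 and -0.13, with adjusted p of 0.937 and 0.264. Gprc6a and Gpr158 were not well above background on any array. Gpr179 was so on ID8G replicate 1 alone.

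**Figure D3:**
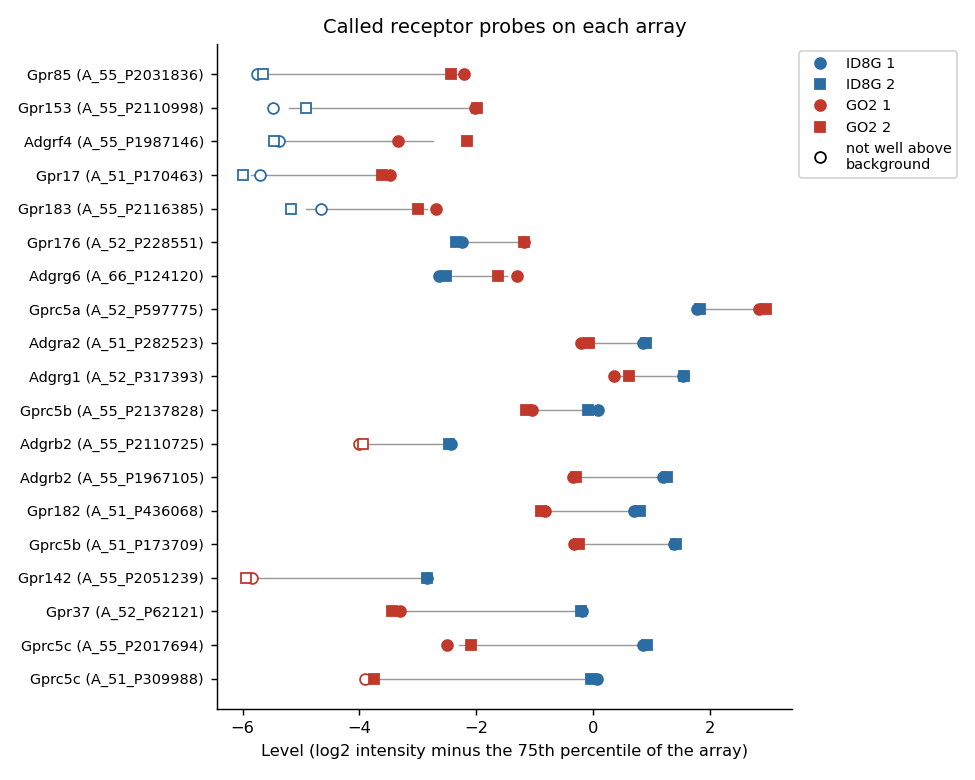
Level (x axis, log2 intensity relative to the array's 75th percentile) of each of the 19 called receptor probes (y axis) on the ID8G arrays (blue) and the GO2 arrays (red), with replicate 1 as circles and replicate 2 as squares. Open symbols were not well above background, and gray lines join the means. In every row the GO2 arrays lie on 1 side of the ID8G arrays, and the replicates of Adgrf4 in GO2 cells are the most spread.

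Gpr142 and Gprc5c are neighbors on chromosome 11. In the gene order of GRCm38.p6 they follow Btbd17, whose annotated span overlaps that of Gpr142. Btbd17 fell as well, by 2.91 on the log2 scale (standard error 0.13, adjusted p = 0.000598), while Kif19a and Cd300a, the genes on either side of the 3, differed by 0.07 and -0.31 and were not called. Gpr142, which senses aromatic amino acids in pancreatic islets, had levels of -2.84 and -2.84 in ID8G and -5.84 and -5.94 in GO2 cells. It was not well above background on either GO2 array, so that its signal was at least 1.96-fold lower there (adjusted p = 0.000195 on the values as measured). Gpr142 passed the filter only through ID8G cells, so that its direction follows from the filter. With the dim values raised to the lowest signal well above background the difference was -0.97, under 2-fold, and Gpr142 was not called. This run of neighbors was noticed after the values were seen.

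Gpr37 fell as well. It is an orphan receptor of brain and of myelinating cells, known for misfolding in the endoplasmic reticulum and as a substrate of parkin. Its levels were -0.19 and -0.21 in ID8G and -3.30 and -3.44 in GO2 cells, all well above background. The difference was -3.18 (standard error 0.07, adjusted p = 0.000216), a 9.04-fold lower signal. With normexp background correction the Gpr37 difference was -2.21, still called. The closest relative of Gpr37, Gpr37l1, was at -2.47 and -2.47 in ID8G and -3.20 and -2.41 in GO2 cells, where the groups overlapped (difference -0.33, adjusted p = 0.395). Prosaposin, the product of Psap, has been proposed as a ligand of both, and the Psap probe differed by 0.14 (adjusted p = 0.132).

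Gpr182, an atypical chemokine receptor known from endothelium, fell by 1.61 (standard error 0.07, adjusted p = 0.000558). Its levels were 0.70 and 0.81 in ID8G and -0.82 and -0.89 in GO2 cells. Of the 7 endothelial markers 6 were at background on these arrays, Cdh5, Kdr and Tek among them, and Pecam1 was above it, as given above. Adrenomedullin (Adm), which was once taken as its ligand, went from -1.54 and -1.53 to -4.49 and -4.89, where it was not well above background, and was at least 4.84-fold lower (adjusted p = 0.000701). Adm passed the filter only through ID8G cells, so that its direction follows from the filter.

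The receptors that rose most were at background in ID8G cells, so their fold is a lower bound. Gpr85, a strongly conserved orphan receptor of the brain, had levels of -5.75 and -5.66 in ID8G and -2.21 and -2.43 in GO2 cells. It was at least 2.56-fold higher (adjusted p = 0.000302 on the values as measured, and 0.00383 with the dim values raised). The orphan receptor Gpr153 rose from -5.49 and -4.92 to -2.02 and -1.98, at least 3.19-fold (adjusted p = 0.00151 as measured, and 0.00135 with the dim values raised). With normexp background correction Gpr85 and Gpr153 differed by 1.17 and 1.27 and were called. These differences are smaller than the bounds, which are 1.36 and 1.68 on the log2 scale. Both genes passed the filter only through GO2 cells, so that their direction follows from the filter. Even on the GO2 arrays these probes stayed below the 75th percentile of their array.

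Gpr176, an orphan receptor of the circadian clock of the brain, was well above background in both lines and rose more modestly. Its levels were -2.24 and -2.35 in ID8G and -1.18 and -1.19 in GO2 cells, a difference of 1.11 (standard error 0.06, adjusted p = 0.00106). With spike-in scaling the difference was 0.91 and with normexp background correction 0.88, and neither was called.

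In the lipid and metabolite class 2 genes were tested, Gpr183 and Gpr17. Both passed the filter only through GO2 cells, so that the direction of both follows from the filter, and neither was called once dim values were raised to the lowest signal well above background on each array. Gpr183, which guides immune cells along oxysterol gradients, had levels of -4.66 and -5.17 in ID8G and -2.68 and -2.997 in GO2 cells. It was at least 1.79-fold higher (adjusted p = 0.00522, and 0.0191 with the dim values raised), and with normexp background correction its difference was 0.89 and not called. Ch25h, the enzyme that makes the oxysterol from which the Gpr183 ligand is built, went from -5.68 and -6.09 to -1.42 and -1.64, at least 4.44-fold (adjusted p = 0.000499). Ch25h also passed the filter only through GO2 cells, so that its direction follows from the filter. Gpr17, known from oligodendrocyte precursors, was only just above background in GO2 cells, at -3.48 and -3.61, against -5.70 and -6.00 in ID8G cells. Its bound was 1.096-fold, and at that bound it did not pass the test (adjusted p = 0.433, against 0.000962 on the values as measured). The other genes of the class, Gpr34, Gpr35, Gpr55 and Gpr84 among them, were not tested. Of 8 lymphocyte markers, 6 were well above background on no array, and 2 were tested with 0 called. Their summed signals were 5.21 to 5.27 in ID8G and 5.16 to 5.45 in GO2 cells. The part of immune cells in the Gpr183 signal was not tested.

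Of 26 adhesion receptor genes on the array, 10 were tested, 2 rose and 3 fell. Adgrb2, a member of the brain angiogenesis inhibitor group, fell by both probes. A_55_P1967105 had levels of 1.19 and 1.28 in ID8G and -0.34 and -0.30 in GO2 cells, a difference of -1.55 (standard error 0.06, adjusted p = 0.000479). A_55_P2110725 was not well above background in GO2 cells and was at least 2.56-fold lower (adjusted p = 0.00045), but with normexp background correction it differed by -0.66 and was not called. This second probe passed the filter only through ID8G cells, so that its direction follows from the filter. The replicates of each line lay close together on both probes.

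Adgrg1, also known as Gpr56, binds type III collagen and the transglutaminase Tgm2 and is studied in neural development and in melanoma metastasis. Its levels were 1.54 and 1.55 in ID8G and 0.36 and 0.61 in GO2 cells, a difference of -1.06 (standard error 0.10, adjusted p = 0.00435). Adgra2, a coreceptor of Wnt7 ligands in brain endothelium, had levels of 0.86 and 0.91 in ID8G and -0.21 and -0.07 in GO2 cells, a difference of -1.03 (standard error 0.07, adjusted p = 0.00201). Both differences lie just past 2-fold, and without GO2 replicate 1 or with normexp background correction neither gene was called. Adgrg1 lies between Adgrg5 and Adgrg3 in the genome, and neither neighbor was well above background on any array.

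Adgrg6, also known as Gpr126, acts in the myelination of Schwann cells and binds laminin and type IV collagen. Its 2 probes disagreed on the call. A_66_P124120 rose by 1.11 (standard error 0.13, adjusted p = 0.00749), with levels of -2.64 and -2.51 in ID8G and -1.30 and -1.63 in GO2 cells, while A_66_P114451 differed by 0.67 (standard error 0.06, adjusted p = 0.00362) and stayed under 2-fold. The rise was not called without GO2 replicate 1, with spike-in scaling or with normexp background correction. Adgrf4, an orphan receptor, was at -5.37 and -5.46 in ID8G and at -3.33 and -2.16 in GO2 cells, at least 1.91-fold higher. It passed the filter only through GO2 cells, so that its direction follows from the filter. The adjusted p was 0.0139 on the values as measured, and 0.15 with the ID8G values raised to the lowest signal well above background, where the gene was not called. The GO2 arrays lay apart from each other, and without either ID8G array Adgrf4 was not called.

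The other 5 adhesion receptors were present in both lines at differences under 2-fold. Adgre5 (CD97), a receptor of leukocytes and many tumors that binds Cd55, had levels of 3.08 and 3.09 in ID8G and 2.35 and 2.35 in GO2 cells, a difference of -0.73 (standard error 0.05, adjusted p = 0.00175). Adgrg2, known from the epididymis, differed by 0.80 and 0.59 on its 2 probes (adjusted p = 0.00287 and 0.00804). Adgra3 differed by 0.40 (adjusted p = 0.0203). Of the latrophilins, which bind teneurins and Flrt proteins on other cells, Adgrl2 differed by -0.41 (adjusted p = 0.0087) and Adgrl1 by 0.13 (adjusted p = 0.13), which became -0.07 with spike-in scaling.

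**Figure D4:**
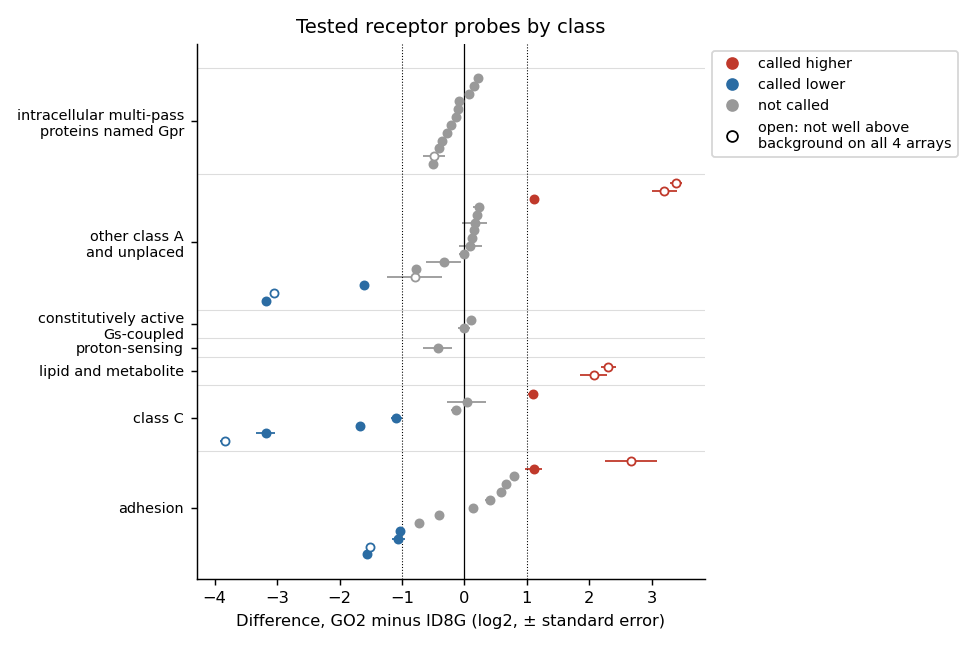
Difference GO2 minus ID8G (x axis, log2, bars are the standard error of limma) for the 53 tested receptor probes, grouped by class (y axis). Dotted lines mark a 2-fold change. The intracellular proteins with a Gpr name all lie between -0.50 and 0.22, while the class C probes span -3.84 to 1.09.

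In 3 classes no gene was called. The 12 tested probes of the intracellular proteins differed by -0.50 to 0.22. Gpr137b, a protein of the lysosome membrane, had the smallest adjusted p among them and its probes disagreed in sign. A_55_P2724794 had levels of 0.80 and 0.74 in ID8G and 0.30 and 0.25 in GO2 cells, a difference of -0.50 (adjusted p = 0.00638). Of its other 3 probes, A_55_P2107207 and A_66_P139873 differed by -0.41 and -0.36, and A_55_P2731786 by 0.22 (adjusted p = 0.0451). The pseudogene Gpr137b-ps resembles Gpr137b, so the source of these signals is uncertain. Among the proton-sensing receptors only Gpr132 was tested, with a difference of -0.43 (standard error 0.23, adjusted p = 0.222) and overlapping groups. Gpr3, which signals through Gs without a ligand and holds the oocyte in meiotic arrest, differed by 0.11 (standard error 0.07, adjusted p = 0.281), and by -0.10 with spike-in scaling.

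Genes of the signaling pathway were read from lists of G proteins, receptor kinases and arrestins, RGS proteins and ligands. Of 61 tested genes in these lists, 12 had a probe that rose and 5 one that fell, that is 14 and 7 of 90 tested probes, beside the 4.51% and 3.34% of all probes. When every array had to be well above background, 11 probes of these lists rose and 6 fell. Of all 26020 such probes, 666 rose and 606 fell. The median difference of the 90 probes was 0.0713, and that of all tested probes was -0.0227. Of 11 tested alpha subunit genes, Gnai1, an inhibitory alpha subunit, rose by 1.21 (standard error 0.05, adjusted p = 0.000558) and no other was called. Of 12 beta and gamma genes, 3 rose and 0 fell. Gng13, a gamma subunit known from taste and olfactory cells, went from -5.84 and -6.13 to -1.01 and -1.22, at least 5.90-fold (adjusted p = 0.000284), and Gng8 rose at least 2.39-fold (adjusted p = 0.000482). Gng13 and Gng8 passed the filter only through GO2 cells, so that their direction follows from the filter. The beta subunit Gnb4 rose by 1.80 on 1 probe (adjusted p = 0.000784) and differed by 1.11 on the other (adjusted p = 0.175), where ID8G replicates lay apart.

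Among 6 tested kinases and arrestins, Grk5 alone was called and rose by 1.64 (standard error 0.06, adjusted p = 0.000469). Its levels were -2.12 and -2.10 in ID8G and -0.41 and -0.52 in GO2 cells. Of 9 tested RGS genes, 2 rose and 1 fell. Rgs3 rose by 3 probes, by 1.21, 1.17 and 1.13, Rgs2 rose by 1.41 (adjusted p = 0.00355), and Rgs11 fell by 1.04 (adjusted p = 0.00202).

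Of 12 tested genes that encode ligands of adhesion receptors, 3 rose and 3 fell. Those listed for Adgrg1 moved apart. Col3a1, the chain of type III collagen, rose from 0.28 and 0.17 to 4.52 and 4.34, a difference of 4.20 (adjusted p = 0.00021). Plvap, a protein of endothelial fenestrae, fell by 2.91 (adjusted p = 0.000191), and Tgm2 fell by 1.48 (adjusted p = 0.000479). Cd55, the partner of Adgre5, fell by all 3 of its probes, by 1.42, 1.31 and 1.25 on the log2 scale. Flrt3, a latrophilin partner, rose by 1.92 (adjusted p = 0.000516), and Fndc4, a partner of Adgrf5, rose by 1.39 (adjusted p = 0.000467). Adgrf5 itself was not tested. Col3a1 is also 1 of the fibroblast markers whose sum rose, as given above. Of 11 tested genes in the list for receptors with a Gpr name, Ch25h and Gas6 rose and Adm fell. Gas6, better known as a ligand of the receptor kinase Axl, rose by 1.73 (adjusted p = 0.000427). Tgm2, Cd55, Flrt3, Fndc4, Gnb4, Rgs2, Adm, Psap and Gpr37l1 were named after their values were seen.

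**Figure D5:**
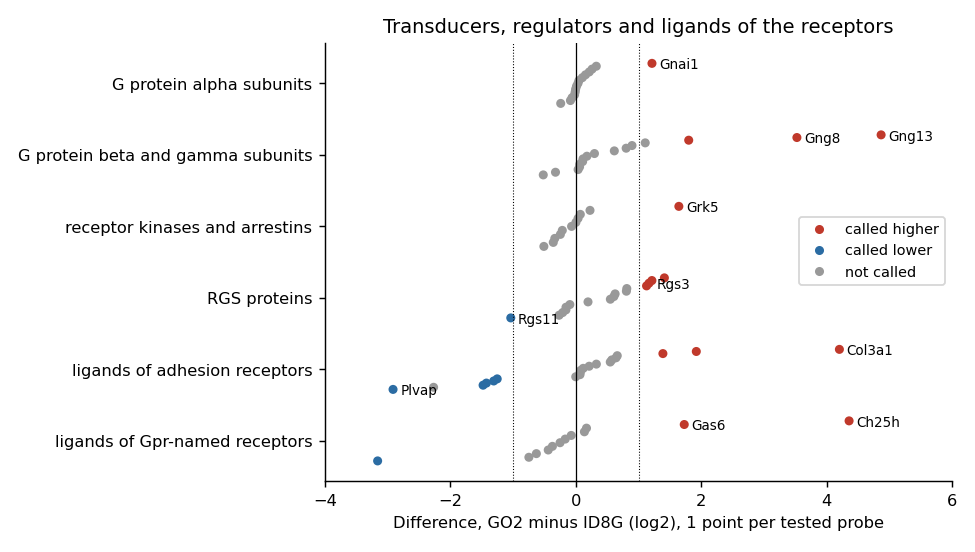
Difference GO2 minus ID8G (x axis, log2) of each tested probe of 6 gene lists (y axis), red where called higher, blue where called lower and gray where not called. Dotted lines mark a 2-fold change, and up to 2 called genes per list are named. The 3 called genes among the beta and gamma subunits all lie to the right, and ligands of adhesion receptors lie on both sides. Gng13 and Gng8 passed the filter only through GO2 cells.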

How the data were processed

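The authors deposited each array's scanner output, in which the intensity of a spot is linear and background-subtracted (Feature Extraction 11.5.1.1), the arrays are not scaled to each other, and spots are marked for outliers, saturation and signal well above background. They also deposited a table of log2 values from GeneSpring, scaled by the 75th percentile of the array, with each probe centered on its median, which was used for 1 alternative.

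From the intensities, spots marked as outliers were left out, spots of a probe were averaged on the log2 scale, and the 75th percentile of each array was subtracted. A probe printed in several spots went by the majority of them, and a tie passed. Probes that passed on both arrays of a cell line were fitted by cell line in limma 3.58.1 (R 4.3.3), and 24 probes without a usable spot on an array were left out, none of them a receptor probe. Where no array of a line was well above background, its level on each array was raised to the lowest signal so marked there, and the fold is written as at least that value. The adjusted p beside such a fold is that of the values as measured, unless stated otherwise. Symbols came from RefSeq accessions through a table for GRCm38.p6, which matched 32994 of 56605 probes (58.3%). The array was designed on mm9, so the table served for names and gene order, and coordinates are given for promoters only. The procedure was tested on simulated data.

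Named in the text are all receptor genes with a called probe, all tested adhesion receptors, the gene with the smallest adjusted p in each class without a call, and at most 2 called genes for each of 6 pathway lists. Other names are relatives, neighbors or partners of these, chosen after their values were seen. The members, the classes, the 6 pathway lists and the 7 marker lists were chosen with earlier results of these data known. The list of adipocyte markers, the 1 of these not described with the results, had 1 gene called lower, Fabp4, and summed signals of 3.77 to 3.93 in ID8G and 2.51 to 2.83 in GO2 cells. As alternatives, the background was corrected by normexp with an offset of 50 on the median pixel signal, since the mean is not used here. The others were quantile normalization, median centering, spike-in scaling, other filters on dim probes, a floor, outlier spots kept, an intensity trend, the methods' t-test, the replicate block, the deposited values and each array left out. Figures were drawn with matplotlib 3.10.9.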

Additional observations from a re-analysis of the deposited data

How the results depend on the processing

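Of the 8 receptor probes that rose and 11 that fell, the methods' t-test on the same values called 0 and 0 after Benjamini-Hochberg adjustment, with 25 of the 53 at an unadjusted p below 0.05, and 0 and 0 of the 14 and 7 pathway probes. By limma 34 of the 53 had an unadjusted p below 0.05. Over all probes the t-test called 0 higher and 3 lower after adjustment. Normexp background correction gave 5 receptor probes higher and 7 lower, without Gpr176, Gpr183, Adgrg6, Adgra2, Adgrg1 and 1 of the 2 probes of each of Adgrb2 and Gprc5b. Spike-in scaling gave 5 higher, without Gprc5a, Gpr176 and Adgrg6. Raising dim values to the floor of each array gave 5 higher, without Gpr17, Gpr183 and Adgrf4, and 10 lower, without Gpr142, and asking for every array to be well above background gave 3, since fewer probes were tested. The causes of the other shifts were not tested. With 1 array left out in turn, 7 to 8 receptor probes were higher and 9 to 14 lower, and 14 to 16 and 7 to 9 pathway probes. The highest count of lower probes came without ID8G replicate 2, which let in Adgre4, Gpr146 and Gpr179. The spread of a line left with 1 array was taken from the other line. With the replicate number as a block 8 receptor probes were higher and 11 lower, all 19 of them the same probes. There was no sign of a pairing by number, since the differences between replicates 1 and 2 of the lines correlated at 0.0273 across probes. Quantile normalization, median centering, an intensity trend, keeping outlier spots and the deposited values also called the same 19. For the named receptor probes 456 values were compared, of which 417 gave the same call, 39 lost it and 0 reversed. The 417 include named probes that were not called at first and stayed so. Called probes that were not tested when every array had to be well above background are not among the 456. The slide could not be used as a block because there is 1 slide. For 5 probes that rose and 2 that fell the limit is signal over background, since 1 line has no measured level.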
